A study of Mus musculus with 67 samples.

Results

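Chromosomes 1 and 2 are the 2 longest autosomes of the mouse, and their copy number was followed in 67 single blastomeres of embryos at the 8-cell stage. All bins placed on either chromosome were taken, 981 on chromosome 1 and 904 on chromosome 2, which is 1885 of the 13103 bins measured. The embryos were BDF1, a mouse hybrid strain, came from mated, superovulated females, were grown in vitro in CZB medium and were exposed during the 4-cell stage either to aphidicolin at 75 ng/ml or to the solvent DMSO without the drug. The 3 DMSO embryos gave 4, 8 and 8 cells (20 in all), and the 6 Aphidicolin embryos 47 cells, 8 each except for 7 from Aphidicolin 6. The cells were collected singly, their DNA was amplified as a whole and sequenced at low depth (scRepli-seq), and the density of reads along a chromosome was read as relative DNA copy number. Cells are named by library number and embryos by treatment and number, and the embryo was the replicate in every test.

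Aphidicolin inhibits the replicative DNA polymerases, so that replication forks slow or stall. Regions that are replicated late or from few origins can then enter mitosis unfinished, and chromosomes that are not fully replicated can break or fail to separate. A chromatid that goes to the wrong daughter cell leaves 1 copy too many in that cell and 1 too few in its sister, and a chromatid that breaks does the same for the part beyond the break. Mouse autosomes have the centromere at one end, so the stretch away from a break can be named simply as proximal (centromere side) or distal. The comparison asks how often, and in what form, such gains and losses were present on the longest chromosomes after exposure to the drug during the 4-cell stage.

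Reads recovered from the deposited values came to 1.47 to 2.83 M per DMSO cell (median 2.26 M) and 0.739 to 2.65 M per Aphidicolin cell (median 2.01 M). Embryo means of depth were 2.21 ± 0.115 M in DMSO (SD, n = 3) and 1.96 ± 0.0949 M in Aphidicolin (SD, n = 6), an exact two-sided permutation p of 0.0238. The typical 1-Mb window of a cell held between 256 and 1169 reads; counting alone then adds an error of about 0.05 (log2) in a cell of median depth. The X chromosome, kept out of all results here, lay at -0.25 ± 0.05 on the log2 scale in DMSO embryos and at -1.02 ± 0.07 in Aphidicolin embryos (exact two-sided permutation p = 0.0119), so X number and treatment cannot be told apart. The part of the depth and X differences in the results below was not tested.

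Values were set relative to the median of each cell's autosomes, after a common profile of highs and lows, weighted for each cell, had been removed. The weight ran from 0.72 to 1.39 in DMSO cells and from -0.13 to 1.39 in Aphidicolin cells. Its embryo means were 1.23 ± 0.099 in DMSO (SD, n = 3) and 0.814 ± 0.29 in Aphidicolin (SD, n = 6), an exact two-sided permutation p of 0.0595. The part of this difference in the results below was not tested. Copies are given on the scale where that median is 2, so 3 copies stand at a log2 of 0.58 and 1 copy at -1. A stretch of at least 10 Mb above 0.32 was called a gain and one below -0.42 a loss. Where the called stretches of 1 sign together cover at least 90% of a chromosome's windows, these events are called whole, and any other event segmental. Positions are those of build mm9, named in the submitters' processing notes, and have the resolution of 1-Mb windows, of which 193 lie on chromosome 1 (3 to 197 Mb) and 178 on chromosome 2 (3 to 181 Mb).

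**Figure D1:**
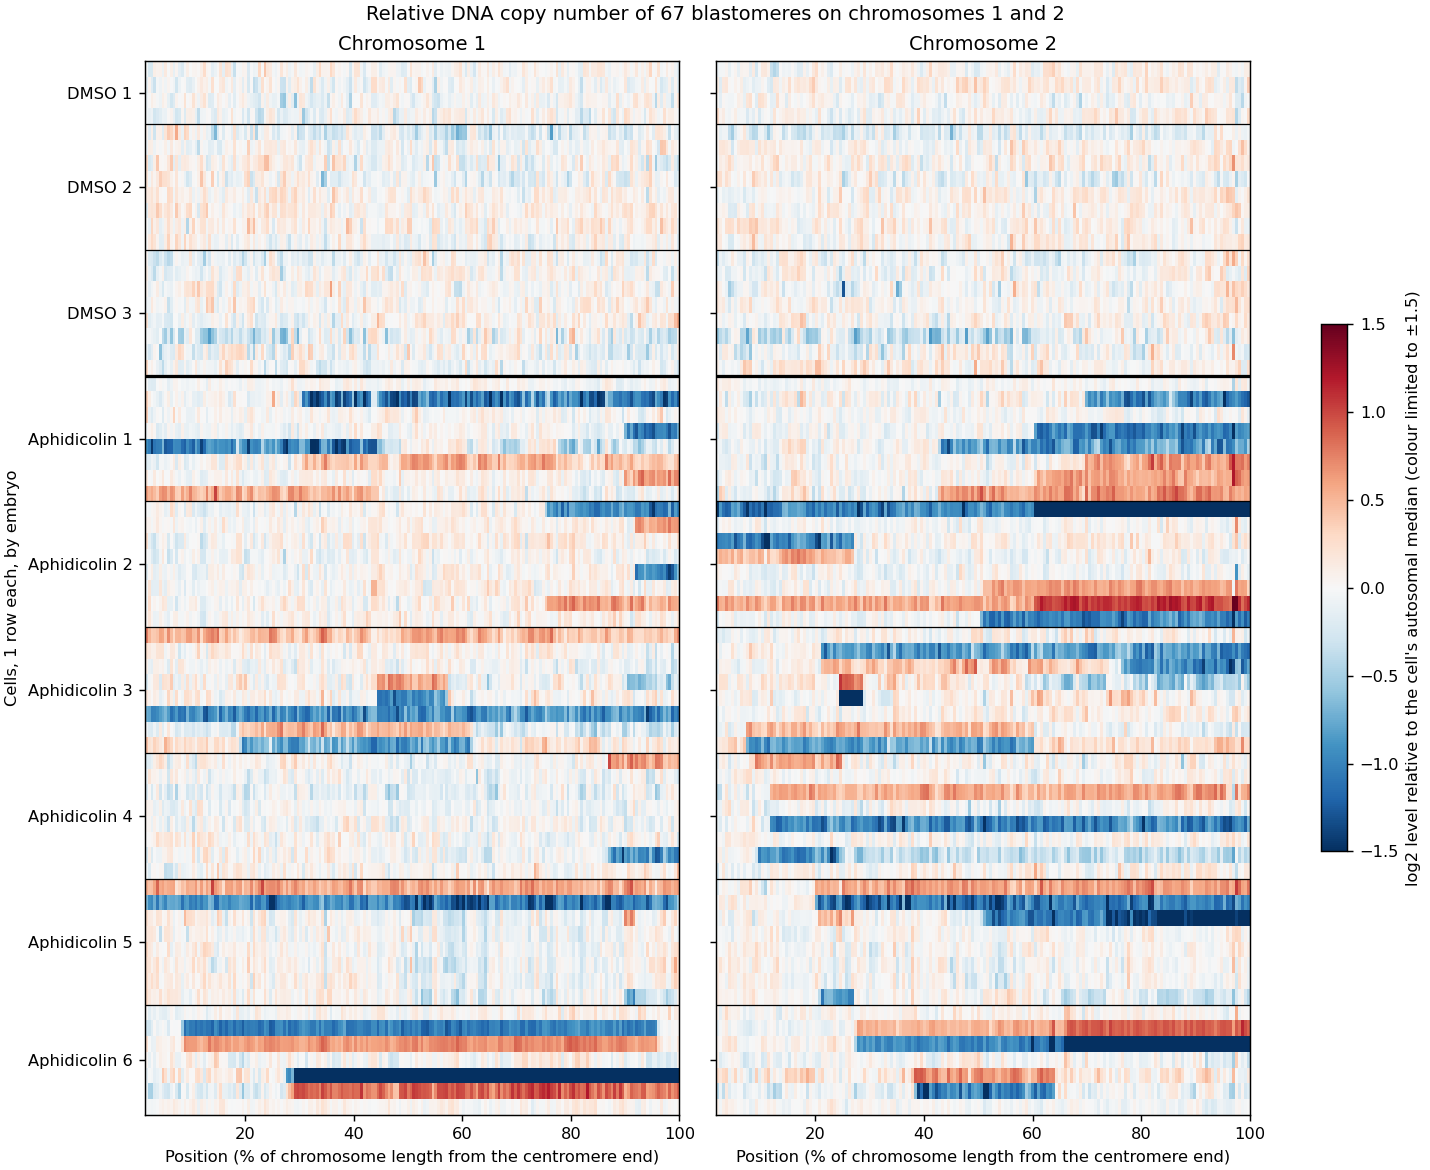
Log2 level of every 1-Mb window on chromosomes 1 and 2 (columns, as % of chromosome length from the centromere end) in each of the 67 cells (rows, grouped by embryo, with a thick line between DMSO and Aphidicolin). Colour runs from blue (lower) over white (the cell's autosomal median) to red (higher). The 20 DMSO rows hold no called stretch, whereas 34 of the 47 Aphidicolin rows do, mostly as red and blue rows with the same bounds within 1 embryo.

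In DMSO cells both chromosomes stayed near 2 copies from end to end. The whole-chromosome level of chromosome 1 ran from -0.14 to 0.09 on the log2 scale over the 20 cells (median -0.01), and that of chromosome 2 from -0.21 to 0.11 (median 0.04). As deposited, without removal of the common profile, the levels ran from -0.18 to 0.09 for chromosome 1 and -0.27 to 0.10 for chromosome 2. No DMSO cell had a call on either chromosome, and 0 of 20 cells allows a share of up to 15% (3 counts of the total, counting error only). This limit takes the 20 cells as independent, though they came from 3 embryos. In Aphidicolin the levels ran from -7.70 to 0.80 for chromosome 1 (median 0.01) and from -1.21 to 0.68 for chromosome 2 (median 0.00). The 23 Aphidicolin cells without a call on chromosome 1 lay between -0.10 and 0.07, and the 17 without a call on chromosome 2 between -0.03 and 0.05, within the range of the DMSO cells. A called cell can keep a level near 0 too, since the level is a median over the chromosome and most events covered only a part of it.

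A call on chromosome 1 was present in 24 of 47 Aphidicolin cells (51.1%) and one on chromosome 2 in 30 (63.8%). Both chromosomes were called in 20 cells, either in 34 and neither in 13. By embryo, chromosome 1 was called in 6 of 8 cells of Aphidicolin 1 and Aphidicolin 3, in 4 of 8 of Aphidicolin 2, in 2 of 8 of Aphidicolin 4 and Aphidicolin 5, and in 4 of 7 of Aphidicolin 6. Chromosome 2 was called in 6 of 8 cells of Aphidicolin 1, 2 and 3, in 4 of 8 of Aphidicolin 4 and 5, and in 4 of 7 of Aphidicolin 6. The lowest Aphidicolin embryo was above the highest DMSO embryo on both chromosomes, as was the case for 7 of the 19 autosomes (36.8%).

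The embryo means were 51.2% ± 22.6 of cells for chromosome 1 and 63.7% ± 12.7 for chromosome 2 in Aphidicolin (SD, n = 6), against 0% ± 0 in DMSO (SD, n = 3). The exact two-sided permutation p over the 84 splits of the 9 embryos was 0.0238 for chromosome 1 and 0.0119, the smallest these embryos can give, for chromosome 2. With Benjamini-Hochberg adjustment over the 19 autosomes both came to 0.0754, and by this rule 0 of 19 autosomes passed (0.0%, 6 with an unadjusted p under 0.05). At a minimum length of 5 Mb both passed, with an adjusted p of 0.0452 (exact permutation test) and 1 chromosome 1 call in a DMSO embryo (mean 4.17%). Without removal of the common profile most DMSO cells were called too (embryo means 91.7% on chromosome 1 and 95.8% on chromosome 2, against 84.5% and 76.2% in Aphidicolin), so the calls here rest on that removal. Set against the mean of the other autosomes of the same 6 embryos, 40.8% ± 11, the share for chromosome 2 was higher in 6 of 6 embryos (exact sign-flip permutation p = 0.03125, adjusted p = 0.198). That for chromosome 1 was higher than the others' 41.5% ± 10.6 in 4 of 6 (exact p = 0.375, adjusted p = 0.810), and 0 of 19 autosomes passed (0.0%, 3 with an unadjusted p under 0.05).

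**Figure D2:**
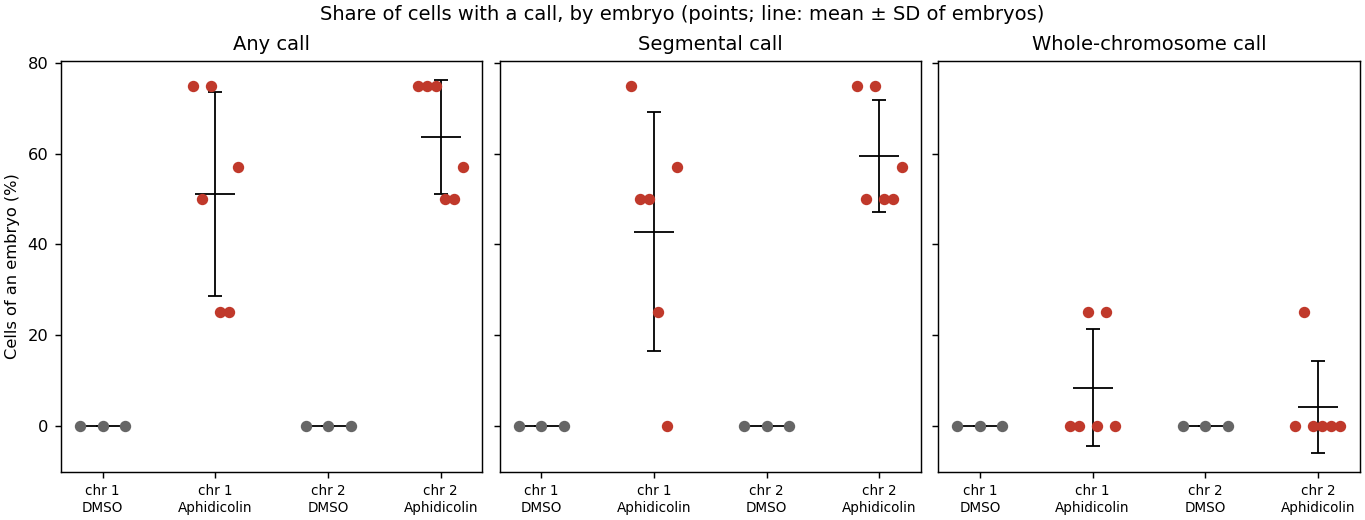
Share of an embryo's cells (vertical axis, %) with any call, a segmental call or a whole-chromosome call on chromosomes 1 and 2, with 1 point per embryo (3 DMSO, 6 Aphidicolin) and the mean ± SD of embryos as a line. All DMSO points lie at 0; Aphidicolin points for any call run from 25 to 75% on chromosome 1 and from 50 to 75% on chromosome 2.

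Most of what was called were parts of chromosomes. There were 63 events in Aphidicolin, 25 on chromosome 1 and 38 on chromosome 2, of which 28 were gains and 35 losses. Only 6 chromosomes were gained or lost whole, 4 copies of chromosome 1 and 2 of chromosome 2. That is 16.7% of the 24 called chromosomes 1 and 6.67% of the 30 called chromosomes 2, against 28.8% of the 319 called chromosomes among the other 17 autosomes. In Aphidicolin embryos 8.33% ± 12.9 of cells had a whole call on chromosome 1 and 4.17% ± 10.2 on chromosome 2 (SD, n = 6), against 0% ± 0 in DMSO (exact permutation p = 0.5 and 1, adjusted p = 0.864 and 1). No autosome passed this test (0 of 19, 0.0%, none with an unadjusted p under 0.05). Counting an event as whole from 80% of the windows raised the shares to 13.1% and 14.6%, and without Aphidicolin 2 the share for chromosome 2 was 0%. Without Aphidicolin 3 or Aphidicolin 5 the share for chromosome 1 was 5%.

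Segmental calls were in 42.9% ± 26.4 of cells for chromosome 1 and in 59.5% ± 12.3 for chromosome 2 (SD, n = 6), against 0% ± 0 in DMSO. The share for chromosome 2 was the highest of the 19 autosomes, which ran from 12.5 to 59.5% with a median of 31.8%, and that for chromosome 1 was the third highest. The exact permutation p was 0.0833 for chromosome 1 and 0.0119 for chromosome 2 (adjusted p = 0.264 and 0.113), and 0 of 19 autosomes passed (0.0%, 2 with an unadjusted p under 0.05). Set against the mean of the other autosomes of the same embryos, 29.3% ± 7.21, chromosome 2 was higher in 6 of 6 embryos (exact sign-flip permutation p = 0.03125, the smallest 6 embryos can give, adjusted p = 0.396). For chromosome 1 the others were at 30.3% ± 7.42, and it was higher in 5 of 6 embryos (adjusted p = 0.816 by the same exact test, which 0 of 19 autosomes passed and 1 met at an unadjusted p under 0.05). A longer chromosome offers more room for a call, and the shares are not corrected for it.

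The whole-chromosome events came as facing gains and losses. In Aphidicolin 3, chromosome 1 was at 2.71 copies in cell 43 and at 1.06 in cell 48. In Aphidicolin 5, chromosome 1 was at 2.95 copies in cell 59 and at 1.01 in cell 60. In Aphidicolin 2, cells 41 and 35 had gained and lost all of chromosome 2, at different levels on either side of 109 Mb. Up to that point cell 41 held 3.0 copies and cell 35 1.02; beyond it cell 41 held 4.17 and cell 35 only 207 reads in 72 windows. No chromosome 2 was gained or lost whole at a single level.

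A total of 3 long stretches held almost no reads, 3 of the 63 events (4.76%). On the other 17 autosomes 24 of 402 events had a log2 below -3. Chromosome 1 from 57 to 197 Mb in cell 71 of Aphidicolin 6 held 505 reads in 139 windows, 0.362% of the level at 2 copies (log2 -8.11). Chromosome 2 from 109 to 181 Mb in cell 35 was at 0.278% (log2 -8.49), and from 120 to 181 Mb in cell 69 of Aphidicolin 6 at 0.474%, with 546 reads in 61 windows (log2 -7.72). They reached the distal end, and the same stretches were high in another cell of the embryo. Cell 72 held 3.68 copies of chromosome 1 from 55 Mb on, cell 41 4.17 copies of chromosome 2 from 109 Mb, and cell 68 3.78 copies of chromosome 2 from 120 Mb. With the 10-Mb gain to 3.55 copies described below, these were the 4 gains above 3.5 copies among 28. No DMSO cell had such a stretch on either chromosome.

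**Figure D3:**
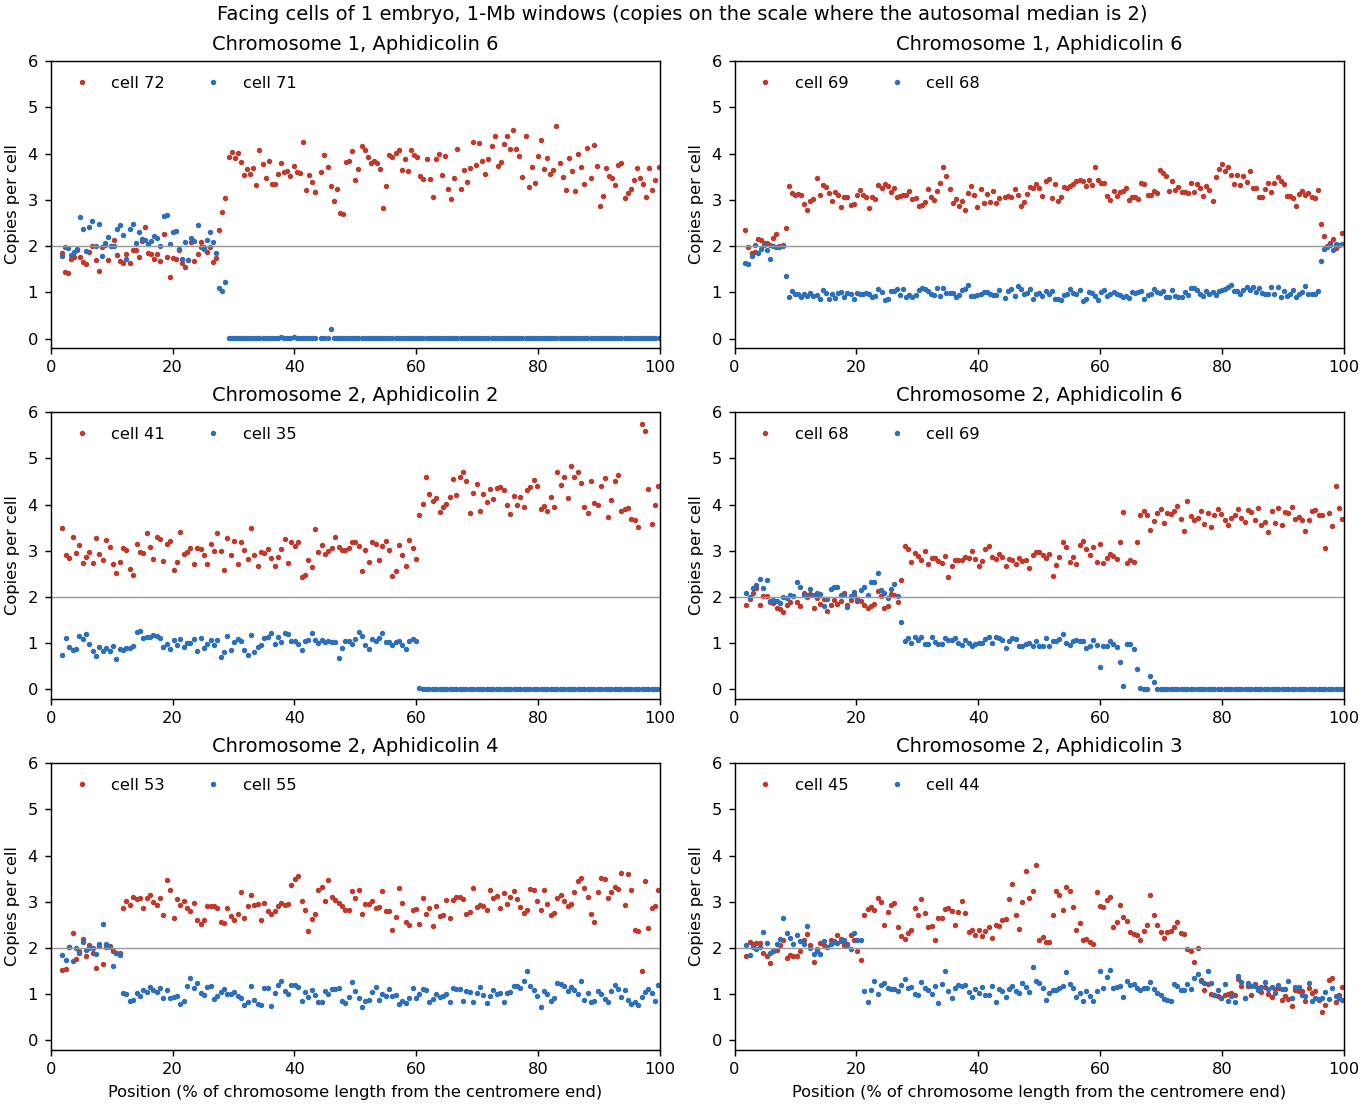
Copies per cell in 1-Mb windows (vertical axis) along the chromosome (horizontal axis, % of length from the centromere end) for 6 pairs of cells of 1 embryo, red for the cell with the higher level and blue for the other. Apart from cells 44 and 45, steps fall within 2 Mb in both cells, the 3 stretches near 0 copies face levels of 3.68 to 4.17 copies, and only in cells 44 and 45 does the distal end lie near 1 copy in both.

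Most other levels lay near 3 copies or 1 copy. Of the 28 gains 24 lay between 2.5 and 3.5 copies, with a median over all of 3.03, and of the 35 losses 32 lay between 0.5 and 1.5, with a median of 1.01. The inner bounds, 2.5 and 1.5 copies, are about the call limits themselves. These counts therefore only set off gains above 3.5 copies and losses below 0.5. The uncalled stretches of the chromosomes with an event stood at a median of 2.00 copies (1.52 to 2.39 over 68 stretches). Not all of them touched an event. In cell 57 of Aphidicolin 4, chromosome 2 from 44 Mb to the end stood uncalled at 1.57 copies. The losses least far from 2 copies were both in cell 46 of Aphidicolin 3, chromosome 1 from 178 Mb at 1.44 copies and chromosome 2 from 106 Mb at 1.49 copies.

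Segmental events were long. Their median length was 61 Mb (10 to 170 Mb), 49 Mb on chromosome 1 and 61 Mb on chromosome 2, against 44 Mb on the other 17 autosomes. As a share of the chromosome that was 25.4% of chromosome 1 and 34.3% of chromosome 2, against 37.0% elsewhere. Segmental gains and losses had medians of 66 and 55 Mb. Of the 55 segmental events 31 ran from a break to the distal end, 4 from the proximal end to a break, and 20 lay between breaks on both sides. Among the 276 segmental events on the other 17 autosomes these numbers were 177, 36 and 63.

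The longest segmental event on chromosome 1 left out both ends. In Aphidicolin 6, the 170 Mb from 17 to 187 Mb were at 3.17 copies in cell 69 and at 0.973 in cell 68. The proximal 14 Mb were at 2.06 and 1.93 copies in these cells and the distal 10 Mb at 2.18 and 1.96, so both ends stayed near 2 copies. Next in length were the distal stretches from 55 to 57 Mb in cells 72 and 71, and in Aphidicolin 1 the 137 Mb from 60 Mb to the end, at 2.69 copies in cell 32 and 0.938 in cell 28. The remaining 4 of the 10 longest were an interstitial 85 Mb (37 to 122 Mb) in cells 49 (2.77 copies) and 50 (1.15 copies) of Aphidicolin 3 and the proximal end of Aphidicolin 1, lost to 86 Mb in cell 31 (1.01 copies) and gained to 88 Mb in cell 34 (2.86 copies). Shorter events on chromosome 1 were distal, down to the 16 Mb from 181 Mb in cells 36 (3.11 copies) and 39 (1.06 copies) of Aphidicolin 2, save for an interstitial 26 Mb (87 to 113 Mb) in cells 46 (3.06 copies) and 47 (1.02 copies) of Aphidicolin 3.

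On chromosome 2 the longest segmental events spared only the proximal end. In Aphidicolin 4, the 160 Mb from 21 Mb on were at 2.94 copies in cell 53 and at 1.01 in cell 55. In Aphidicolin 5, the 145 Mb from 36 Mb on were at 3.03 copies in cell 59 and 0.954 in cell 60, the same cells that gained and lost chromosome 1 whole. Cell 44 of Aphidicolin 3 had lost the 143 Mb from 38 Mb on (1.12 copies). The other long events were the distal 104 and 103 Mb in cells 34 (3.13 copies) and 31 (1.10 copies) of Aphidicolin 1, the interstitial 96 Mb from 13 to 109 Mb in cells 49 (2.77 copies) and 50 (1.14 copies) of Aphidicolin 3, and the distal 90 Mb in cell 42 (0.992 copies) of Aphidicolin 2. The shortest pair, 10 Mb from 44 Mb on in cells 46 and 47 of Aphidicolin 3, was not of 1 level. From 45 to 49 Mb cell 47 was between 0.01 and 0.02 copies and cell 46 between 3.62 and 3.81, and from 49 to 52 Mb cell 47 was between 0.64 and 0.71 and cell 46 between 3.17 and 3.49. These windows were chosen after their values had been seen.

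Nearly every event had its counterpart in another cell of the same embryo. An opposite event sharing at least 50% of both lengths was found for 56 of the 63 events (88.9%), 24 of 25 on chromosome 1 and 32 of 38 on chromosome 2. This share was taken for chromosomes 1 and 2 only, so it is not shown to be particular to them. Among the 40 such pairs of events, 28 agreed in both bounds within 2 Mb, and 20 of these had identical bounds at the 1-Mb resolution. In the 28 pairs the copies of both cells summed to 3.63 to 4.24 with a median of 4.00, where 2 normal cells hold 4. With gains at a median of 3.03 copies and losses at 1.01, such a sum follows for most pairs whatever their bounds. Cells 34 and 30 of Aphidicolin 1, for example, differed in bounds on chromosome 2 and summed to 4.10. For the stretches near 0 the sum was 3.69, 3.78 and 4.17. Set against opposite events of other bounds, stretches near 0 summed to 3.18 (cells 69 and 71) and 3.05 (cells 40 and 35). Without removal of the common profile only 39.4% of 188 called events had an opposite event.

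**Figure D4:**
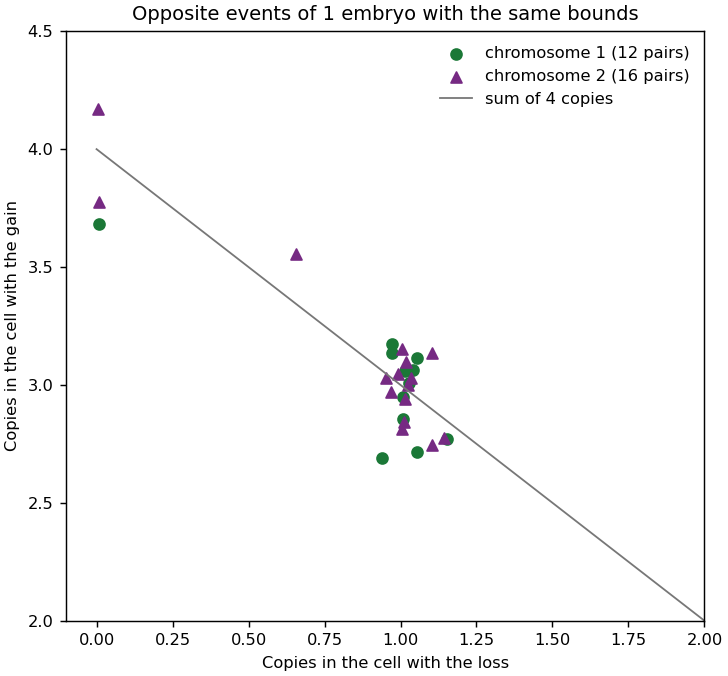
Copies in the cell with the gain (vertical axis) against copies in the cell with the loss (horizontal axis) for the 28 pairs of opposite events of 1 embryo with the same bounds within 2 Mb, 12 on chromosome 1 (circles) and 16 on chromosome 2 (triangles). The line marks a sum of 4 copies. The pairs lie along it at sums of 3.63 to 4.24, with 3 pairs at the left where the loss is near 0 copies. For gains near 3 copies and losses near 1 copy the sum follows from these levels whatever the pairing.

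Facing events with the same bounds were more frequent between cells of 1 embryo than between embryos. On chromosome 1, 12 of the 161 pairs of cells from 1 Aphidicolin embryo held such events (7.45%), against 3 of 920 pairs from different embryos (0.326%). On chromosome 2 the counts were 14 of 161 (8.70%) and 3 of 920 (0.326%). On each of the other 17 autosomes the share was 3.11 to 9.94% within embryos and 0 to 3.04% between them, so both chromosomes lay within the range of the rest. Pairs of cells share cells, so no test was made of these counts. Beyond the whole chromosomes, the longest facing stretches were the 170 Mb of cells 69 and 68, the 160 Mb of cells 53 and 55, the 145 Mb of cells 59 and 60, the 140 Mb shared by cells 72 and 71, the 137 Mb of cells 32 and 28 (sum 3.63 copies), the 103 Mb of cells 34 and 31 (4.24 copies) and the 96 Mb of cells 49 and 50 (3.92 copies).

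The cells that faced each other on chromosomes 1 and 2 were mostly those that did so on the rest of the genome. For each Aphidicolin cell, the cell of its embryo with the lowest correlation of window levels over the other 17 autosomes was named its partner, a step chosen after the pattern had been seen. This gave 21 pairs that named each other. Of the 28 facing events with the same bounds 27 lay between partners, the exception being the whole chromosome 1 in cells 43 and 48, which had no mutual partner. Among the 24 cells called on chromosome 1, the most opposite cell on that chromosome was the partner in 21, and the median correlation with the partner was -0.69, against 0.10 with the other cells of the embryo. For chromosome 2 it was 25 of 30 called cells, with medians of -0.74 and 0.04. These correlations run over the windows of 1 chromosome, which share the cell's steps, and describe the pairs only. In the mutual pairs the partner was past the opposite call limit in the stretch of 54 of 61 events and past the same limit in 1, and in 55 of them the copies of both cells summed to between 3.5 and 4.5.

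Means over the cells of an embryo varied less than the values of single cells, which averaging alone would also bring about. The mean over an embryo's cells was between 1.96 and 2.05 copies of chromosome 1 and between 1.93 and 2.03 copies of chromosome 2 in the 6 Aphidicolin embryos. In the 3 DMSO embryos it was 1.98 to 2.03 and 2.00 to 2.06. On chromosome 2 Aphidicolin 3, 4 and 5 (1.96, 1.98 and 1.93 copies) were below the lowest DMSO embryo, and no test was made of these means. Single cells ranged from 0.589 to 3.16 mean copies of chromosome 1 and from 0.602 to 3.48 of chromosome 2 in Aphidicolin. In DMSO cells the ranges were 1.84 to 2.14 and 1.74 to 2.14.

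Only 7 events had no counterpart, all of them losses and all in Aphidicolin 3 and Aphidicolin 5. In cell 46 they were the 2 shallow losses named above, where the partner, cell 47, stood at 2.03 and 2.11 copies. Cells 44 and 45 had both lost the distal 43 Mb of chromosome 2, at 1.10 and 1.02 copies from 138 Mb on. From 38 to 138 Mb these partners faced each other again, at 1.12 and 2.55 copies, so both cells together held 3.67 copies before 138 Mb and 2.13 beyond it; the level of cell 45 in that stretch, 0.35 on the log2 scale, was too close to its flank to be called as a separate gain. The other 3 were the successive steps of chromosome 2 in cell 61, to 0.986 copies from 92 Mb, 0.744 from 133 Mb and 0.537 from 150 Mb to the end. Its partner, cell 66, was at 1.97, 1.96 and 1.59 copies there, so the distal 31 Mb were low in both cells. The common profile itself steps by -0.63 at 133 Mb and by 0.43 at 150 Mb on the log2 scale, and its part in these steps was not tested.

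Breaks, the bounds between a called stretch and its neighbour, numbered 73, of which 27 lay on chromosome 1 and 46 on chromosome 2. Facing cells share their bounds, so breaks of 1 embryo within 2 Mb were joined to sites. This left 14 sites on chromosome 1 and 25 on chromosome 2. Of the 39 sites, 32 (82.1%) were seen in at least 2 cells of the embryo, against 134 of 184 (72.8%) on the other 17 autosomes. Chromosome 2 held 14 sites per 100 Mb and chromosome 1 7.25, against 9.08 on the other 17 autosomes. Aphidicolin 3 had the most, 5 and 7, and Aphidicolin 5 had none on chromosome 1. In 4 equal parts of the length from the centromere end, the sites numbered 2, 4, 2 and 6 on chromosome 1 and 7, 6, 10 and 2 on chromosome 2.

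Counted per cell, chromosome 2 had 0.552 ± 0.151 breaks per 100 Mb in Aphidicolin embryos (SD, n = 6) against 0.364 ± 0.126 on the other autosomes of the same embryos, and was higher in 6 of 6. The exact sign-flip permutation p was 0.03125, the smallest possible, and the adjusted p 0.594. Chromosome 1 had 0.301 ± 0.214 against 0.385 ± 0.127 and was higher in 2 of 6 embryos (exact p = 0.3125, adjusted p = 0.990). No autosome passed (0 of 19, 0.0%, 1 with an unadjusted p under 0.05). At a minimum length of 5 Mb the difference for chromosome 2 turned to -0.00793 breaks per 100 Mb, and without removal of the common profile that for chromosome 1 turned to 0.271. Leaving out Aphidicolin 5, the embryo with no break there, brought the difference for chromosome 1 from -0.08 to -0.02.

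Some break sites recurred between embryos. Within 2 Mb of a site in another embryo lay 16 of the 39 sites (41%), 4 of 14 on chromosome 1 (28.6%) and 12 of 25 on chromosome 2 (48%). On the other 17 autosomes it was 80 of 184 (43.5%), so the share on chromosomes 1 and 2 was near that of the rest. Joined over embryos the 39 became 30 places, of which 7 held breaks of at least 2 embryos. On chromosome 1 these were 86 to 88 Mb (cells 31 and 34 of Aphidicolin 1 and cells 46 and 47 of Aphidicolin 3) and 177 to 178 Mb (cells 30 and 33 of Aphidicolin 1 and cell 46 of Aphidicolin 3). On chromosome 2 they were 36 to 38 Mb (5 cells of Aphidicolin 3 and 5), 44 to 45 Mb (4 cells of Aphidicolin 3 and 4), 49 Mb, 91 to 92 Mb (3 cells of Aphidicolin 2 and 5) and 109 Mb. Without Aphidicolin 3 only 3 places of 2 or more embryos were left.

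The other 17 autosomes held 35 places of at least 2 embryos, 8 of them with 3. On chromosomes 1 and 2 there were 2 places with 3 embryos, on chromosome 2 and each at a single window bound. At 49 Mb the proximal 46 Mb ended in cells 37 (1.01 copies) and 38 (2.81 copies) of Aphidicolin 2, an 11 to 12 Mb stretch ended in cells 61 (2.74 copies) and 66 (1.10 copies) of Aphidicolin 5, and a 71-Mb stretch began in cells 68 (2.84 copies) and 69 (1.01 copies) of Aphidicolin 6. At 109 Mb the distal 72 Mb began in cells 33 (2.97 copies) and 30 (0.970 copies) of Aphidicolin 1, the level changed in cells 41 and 35 of Aphidicolin 2, and the 96-Mb stretch ended in cells 49 and 50 of Aphidicolin 3. The step across the place had a median size of 0.74 at 49 Mb and 0.79 at 109 Mb in the 6 broken cells each, on the log2 scale. In the 20 DMSO cells the step ran from -0.22 to 0.26 at 49 Mb and from -0.21 to 0.29 at 109 Mb, after removal of the common profile, to which these cells contribute. The broken cells were picked by a called step at the place, and no DMSO cell had a call. A larger step in the broken cells therefore follows from the choice of cells and is no evidence of its own. The common profile itself steps by 0.20 at 49 Mb and by 0.01 at 109 Mb, and by up to 0.63 in size over the 30 places. Its part in where breaks were placed was not tested. With sites joined over 5 Mb, 9 places were shared by at least 2 embryos.

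An opposite stretch too short to be called lay near the distal end of chromosome 1. From 177 to 181 Mb, cell 61 of Aphidicolin 5 was at 2.92 to 3.43 copies and its partner, cell 66, at 0.99 to 1.38 copies, with cell 61 back at 2.09 copies in the next window. The proximal bound, seen in both cells, is at the break place of Aphidicolin 1 and 3 (177 to 178 Mb). The distal bound, at the break place of Aphidicolin 2 (181 Mb), was seen in cell 61 only, since cell 66 was still at 1.47 and 1.48 copies in the next 2 windows. The stretch of 4 Mb was noticed after its values had been seen and enters no count.

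**Figure D5:**
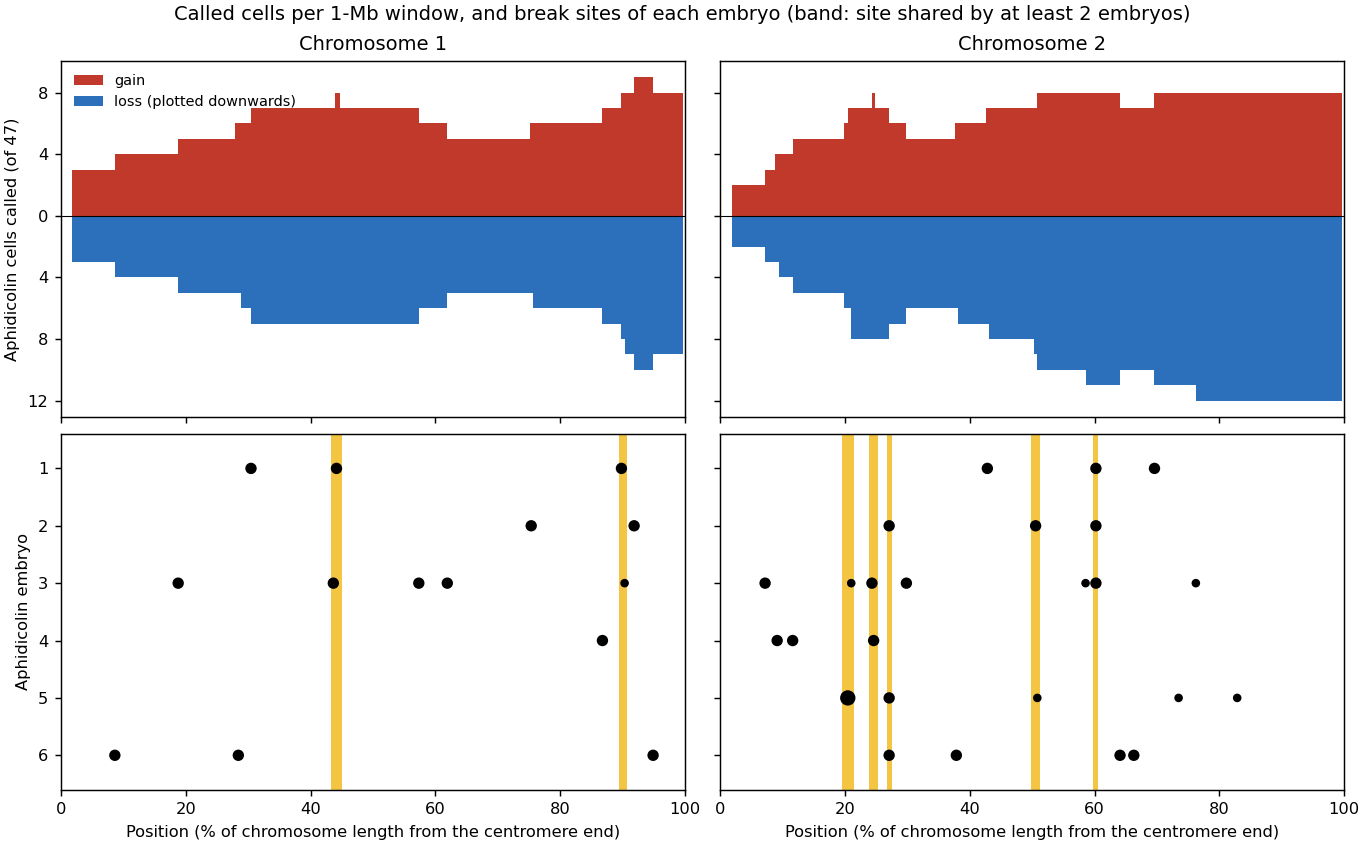
Top, number of the 47 Aphidicolin cells with a gain (red, upwards) or loss (blue, downwards) in each 1-Mb window; bottom, break sites of each Aphidicolin embryo (rows), with larger points for more cells and bands where sites of at least 2 embryos lie within 2 Mb. The horizontal axis is the position in % of chromosome length from the centromere end. Chromosome 2 is called in 4 cells at its proximal end and in 20 at its distal end, and its bands at 49 and 109 Mb join 3 embryos.

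Of chromosomes 1 and 2, the distal part of chromosome 2 was covered by calls most often. Its first 10 Mb were called in 4 cells of 1 embryo, and the stretch from 138 Mb to the end in 20 of 47 cells (42.6%) of all 6 embryos, 8 with a gain and 12 with a loss. On chromosome 1 the first 10 Mb were called in 6 cells of 3 embryos and the peak was 19 cells (40.4%), from 181 to 187 Mb. Averaged over embryos, chromosome 2 was called in 40.5% ± 12.7 of cells distal to its midpoint and in 23.8% ± 12 proximal to it (SD, n = 6), higher distally in 5 of 6 embryos (exact sign-flip permutation p = 0.09375, adjusted p = 0.264). On chromosome 1 the shares were 28.2% ± 16.5 and 23.1% ± 19 (exact p = 0.375, adjusted p = 0.509), and 0 of 19 autosomes passed (0.0%, 1 with an unadjusted p under 0.05, chromosome 3). A distal excess was not particular to chromosome 2, since the mean share was higher distally on every autosome. The excess was 16.7 points on chromosome 2 and larger on chromosomes 3, 7, 11 and 16 (18.2 to 23.6 points). The test of distal against proximal parts was chosen after the data had been seen.

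How far the windows of a cell strayed from 2 copies did not pass the test over embryos. The mean absolute deviation of windows, on the log2 scale, was 0.417 ± 0.395 for chromosome 1 and 0.473 ± 0.209 for chromosome 2 in Aphidicolin (SD, n = 6), against 0.135 ± 0.0184 and 0.139 ± 0.0194 in DMSO (SD, n = 3). The exact permutation p was 0.238 and 0.0595 (adjusted p = 0.323 and 0.259), and 0 of 19 autosomes passed (0.0%, 2 with an unadjusted p under 0.05). On chromosome 2 the groups did not overlap, which was so for 31.6% of autosomes. Aphidicolin 6, with the near-absent distal stretch of cell 71, was at 1.20 on chromosome 1, and without this embryo the difference there fell from 0.282 to 0.125.

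Windows were also tested one by one with limma on embryo values. No window of the 2397 had a shifted embryo mean (0.0%; lowest adjusted p = 0.661; 141 with an unadjusted p under 0.05, 28 of them on chromosome 2 and 1 on chromosome 1). Fitting the cells themselves, with embryo as random effect, gave 1 called window, on neither chromosome. The correlation between cells of 1 embryo in that fit was -0.05, so the cells were in effect its replicates. The spread between the cells of an embryo was higher in Aphidicolin in 117 windows (4.88% of 2397) and lower in 0. Of these 39 lay on chromosome 2 (of 178 windows) and 0 on chromosome 1 (of 193, 60 with an unadjusted p under 0.05). The 39 windows lay between 103 and 181 Mb, in 12 runs of up to 11 windows, with a median difference of 3.03 in log2 SD, an 8.15-fold larger SD, and limma adjusted p from 0.0471 to 0.0493. They passed narrowly, and without Aphidicolin 2, 5 or 6 or any 1 DMSO embryo 0 windows passed genome-wide. Cell 35 of Aphidicolin 2 and cell 69 of Aphidicolin 6 held almost no reads from 109 and 120 Mb to the end (log2 -8.49 and -7.72). Both stretches cover every called window of chromosome 2 save that at 103 Mb, and enter the SD of their embryos. Their part in the 8.15-fold difference was not tested. Without Aphidicolin 1 or 4, 63 and 62 windows of chromosome 2 passed and 3 and 11 of chromosome 1.

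The correlation of their whole-chromosome log2 levels was 0.75 over the 20 DMSO cells and -0.09 over the 47 Aphidicolin cells. Cells of 1 embryo are not independent, and both values share the cell's own centring, so these are descriptions with no test. Cell 71 of Aphidicolin 6, at a chromosome 1 level of -7.70, lay far below every other cell and weighs heavily in the Aphidicolin correlation.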

How the data were processed

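The tables deposited by the authors hold log2 values per bin and cell, relative to the cell's median; a noise score per cell, pass and filter marks and embryo names are given too, per the file headers. The build was mm9, per the submitters' processing notes; the aligner was not given in the sources used here. All 67 cells were marked as passing. Bins stand at 200-kb steps, and read numbers recovered from the log2 values were whole in 100% of cases (tolerance 0.01 reads). Missing values were set to 0.5 reads, and bins were summarised as medians over 1-Mb windows (at least 3 bins; 2397 on the 19 autosomes). The common profile (mean of both groups' medians) was removed by Huber regression in each cell. Segments came from penalised least squares (penalty 4, at least 10 Mb), and neighbours within 0.35 were merged. The steps were tested on simulated data. Simulated cells carried the common profile at each cell's weight plus independent noise, so other differences in profile between cells were not tried. Exact permutation tests ran over embryos, with Benjamini-Hochberg adjustment over 19 autosomes; limma 3.58.1 (R 4.3.3) tested windows, and Python 3.11.15 did the rest. Alternatives were other profiles, centring, lengths, penalties, limits, single bins and leaving out each embryo. Named were all whole-chromosome events, the 10 longest segmental events of each chromosome, all events below -3, all break places of 2 or more embryos and the 10 longest mirrored pairs. Members and lists were chosen with earlier results of these data known. Amplified reads are not independent molecules, so errors from counts cover counting only. Genes at the breaks were not analysed here.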

Additional observations from a re-analysis of the deposited data

Results flagged for a closer look

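Over 14 measures of the 6 Aphidicolin embryos, 4 embryo values stood far from the others by Dixon's criterion, which chance meets in about 1 of 20 groups of independent, continuous values. Aphidicolin 6 stood apart on chromosome 1 in 3 of them, with a mean absolute deviation of 1.20, a mean level of -1.03 and an SD of 3.0 between its cells, all on the log2 scale. The near-absent distal stretch of cell 71 enters each of these values, so they are not separate observations. Aphidicolin 2 stood apart as the embryo with whole-chromosome calls on chromosome 2, in 25% of its cells, the other 5 embryos having 0; with 5 equal values the criterion is met whatever the size, and the chance rate does not apply.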

How the results depend on the processing

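No paired analysis was possible because the replicate numbers are library numbers, of which none is shared between the treatments. Removal of the common profile mattered most. With values as deposited, the difference between treatments in cells with a call turned to -7.14 points on chromosome 1 and -19.6 on chromosome 2, that in segmental calls to -13.4 and -25.9 points, and that in breaks on chromosome 1 to 0.271 per 100 Mb. Events then numbered 188, segmental ones 164 with a median length of 16.5 Mb, mirrored ones 39.4%, break places of 2 or more embryos 22, and 69 windows of both chromosomes had a called spread. At a minimum length of 5 Mb the calls on chromosomes 1 and 2 passed, with differences of 51.2 and 63.7 points and an adjusted p of 0.0452 by the exact permutation test, while the difference in breaks on chromosome 2 turned to -0.00793 per 100 Mb. Apart from leaving out an embryo, 76 alternatives bore on a tested difference, none of which passed after adjustment in the report; 68 kept its direction and still did not pass, and the other 8 are the reversed and newly passing values above. Of 54 alternatives bearing on counts, lengths and shares, which have no direction or test of their own, 6 moved the value, all of them with values as deposited.

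With 1 embryo left out, cells with a call differed by 46.4 to 56.4 points on chromosome 1 and 61.4 to 66.4 on chromosome 2, whole calls by 5 to 10 and 0 to 5, and segmental calls by 36.4 to 51.4 and 56.4 to 61.4. Absolute deviation differed by 0.125 to 0.336 and 0.265 to 0.365, and breaks by -0.12 to -0.02 and 0.167 to 0.20 per 100 Mb. There were 49 to 57 events, 43 to 49 of them segmental, with a median length of 48 to 71 Mb, 86.3 to 93.9% of events mirrored and 3 to 7 break places of 2 or more embryos. No window had a shifted mean (0 to 0), and 0 to 73 had a called spread. With 3 DMSO embryos, tests over 19 autosomes had little room to pass, and events under 10 Mb were not called.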
